A study of Bos taurus with 16 samples.

Results

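The genes described here encode the extracellular and membrane parts of the Wnt pathway and 4 of its intracellular components. They are the WNT ligands, the frizzled receptors and LRP co-receptors, the secreted antagonists of the SFRP, DKK, FRZB and WIF1 type, the R-spondins with their LGR receptors, and CTNNB1, LEF1, TCF7 and AXIN2. They were chosen by the gene name in the array design, as all probes that are not controls and carry one of these names. The rule itself used no measured values, but earlier results of these data were known when the choice was made. The choice gave 83 of 43653 probes on the array and 46 of 16068 gene symbols. A probe entered the test when 4 or more of the 16 arrays had it well above background, and 65 of the 83 probes and 35 of the 46 genes did.

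Endometrium, the lining of the uterus, was sampled from 4 fertile cows after calving by forceps biopsy of the uterine horns, and its total RNA was hybridised to 1-colour Agilent arrays. The nominal times were day 10, day 30, day 50 and day 100, and the true days were 9 to 10, 29 to 30, 49 to 51 and 99 to 100. All 4 cows were sampled at all 4 times, so each group holds 4 arrays from 4 separate animals, and each cow was compared with itself. The labels name no treatment, and breed, age and parity are not given in the sources used here. Each cow was on a slide of its own and the 4 times took positions 1 to 4 in the same order on every slide, so position on the slide and time cannot be told apart.

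Wnt proteins are secreted, lipid-modified ligands that bind a frizzled receptor together with the co-receptor LRP5 or LRP6. In the canonical branch this stabilises beta-catenin, the product of CTNNB1, which then works with TCF and LEF factors to switch on target genes such as AXIN2, itself a brake on the pathway. Antagonists of the SFRP type and WIF1 bind the ligands, DKK proteins block the LRP co-receptors, and R-spondins act through LGR receptors to keep frizzled receptors at the cell surface. In the uterus the pathway is known for its part in the development of glands and in exchange between stroma and epithelium.

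Among the 35 tested genes, 3 passed the test in a comparison with day 10, and all 3 were higher later. The shares called, 2.86% of members at day 50 and 5.71% at day 100, were near the 2.00% and 4.88% of all tested gene symbols, of which 95 were called higher and 166 lower at day 50, and 237 higher and 399 lower at day 100. DKK1, a secreted antagonist, was 27.2-fold higher at day 100, and the ligand WNT2B was 15.2-fold higher at day 100. The ligand WNT16 was 4.33-fold higher at day 50. No member gene passed in a fall by its brightest probe, although a further probe of the antagonist FRZB was 5.67-fold lower at day 100. The brightest CTNNB1 probe lay between 3.05 and 3.65 on all 16 arrays, on a log2 scale of levels, and the R-spondin RSPO3 ran from -7.53 to 2.31.

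Some 60-base probe sequences are shown, those of DKK1 because a main result rests on them and the others because related genes share stretches of them. The DKK1 result is carried by 2 probes at separate positions of chromosome 26 of bovine build Btau_3.1, both on the minus strand. The brightest lies at chr26:7003779-7003838 and the other at chr26:7003647-7003706. Where these positions lie relative to exons was not analysed here.
DKK1, brightest probe: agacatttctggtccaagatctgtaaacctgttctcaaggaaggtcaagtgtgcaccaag
DKK1, other probe: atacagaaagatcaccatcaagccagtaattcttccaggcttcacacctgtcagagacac

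Members of the WNT and frizzled families resemble each other, so a probe could in principle bind a relative. As a description, the longest stretch of identical bases was found for each of 3348 pairs of member probes of different genes. The probes were compared only with each other and not with the transcripts of relatives. The lengths therefore cannot show whether a probe binds a relative. Its median was 6 bases, 17 pairs shared 10 bases or more, and the highest was 17 bases, between a probe of FZD1 and a probe of FZD7. The next longest were 14 bases between the WNT11 probe and the second probe of LEF1, and 13 bases between the brightest FZD7 probe and the second FZD4 probe. Capitals mark the shared stretch in the pairs below. The WNT2B probe lies at chr3:33315011-33315070 on the minus strand and the WNT8B probe at chr26:21649993-21650052 on the plus strand.
WNT2B, second probe: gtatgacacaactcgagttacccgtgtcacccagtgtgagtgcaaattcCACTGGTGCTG
WNT8B: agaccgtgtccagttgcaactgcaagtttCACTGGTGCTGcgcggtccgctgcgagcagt
The next pair holds a ligand that was well above background on 15 of 16 arrays, WNT5B at chr5:115055262-115055321 on the plus strand, and one that was so on 0 of 16, WNT1 at chr5:33871763-33871822 on the minus strand.
WNT5B: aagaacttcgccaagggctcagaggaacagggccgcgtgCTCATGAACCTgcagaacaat
WNT1: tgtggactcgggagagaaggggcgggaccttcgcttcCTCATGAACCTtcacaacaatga
The pair with the longest stretch lies at chr4:7606970-7607029 on the minus strand for FZD1 and at chr2:95160565-95160624 on the plus strand for FZD7, and neither is the brightest probe of its gene.
FZD1, further probe: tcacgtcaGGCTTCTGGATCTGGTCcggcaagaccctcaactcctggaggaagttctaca
FZD7, further probe: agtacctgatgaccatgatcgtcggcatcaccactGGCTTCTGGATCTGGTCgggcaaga
These last 2 probes differed between day 100 and day 10 by -0.89 ± 0.38 and -0.87 ± 0.26 on the log2 scale (SE, 4 cows), and neither passed the test. Whether the shared stretches add signal was not tested.

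A level here is the log2 processed signal of a probe minus the percentile 75 of its array, so 0 is a probe brighter than 75% of the others on that array. Levels of different probes are not compared. Each gene is described by its brightest probe, the one with the highest mean level over the 16 arrays. Differences come from a limma fit with terms for time and cow, p-values were adjusted over all 33182 tested probes, and a gene was called at an adjusted p under 0.05.

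Processed signals had medians from 51.04 to 154 per array, between 61.1% and 76.9% of probes were well above background, and no spot was saturated. Markers of cell types were read beside the tissue label: 10 of 14 epithelial markers, 9 of 10 stromal markers and 10 of 12 smooth muscle markers were well above background on all 16 arrays. Of 8 markers of ciliated epithelium 0 were so. Of all 43653 probes 23262 were so, and these counts do not settle the tissue. Marker levels differed between the biopsies of one time. Epithelial and smooth muscle levels spread most at day 100, and neutrophil levels at day 10. On the mean log2 scale relative to all arrays, the epithelial marker level at day 100 ran from -3.60 in cow 2 to 2.76 in cow 1, and the smooth muscle level ran from 2.28 in cow 2 to -3.72 in cow 1. The neutrophil level, over 6 tested markers of 8, reached 4.44 in cow 1 and 3.72 in cow 4 at day 10 and was at most 1.75 on the 14 other arrays. The macrophage level was 0.90 to 2.58 at day 10 and -1.53 to 0.92 at the later times. In such bulk samples fewer cells of a type and less RNA per cell cannot be told apart.

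Detection separated the roles. Of 17 WNT ligands on the array, 8 were tested, against 7 of 7 frizzled receptors, 2 of 2 LRP co-receptors, 9 of 10 antagonists, 5 of 6 R-spondin and LGR genes and 4 of 4 intracellular members. Over the 46 genes, 23 were well above background on all 16 arrays and 9 on none. The 9 were the ligands WNT1, WNT3, WNT3A, WNT7B, WNT8A, WNT9A and WNT9B, the antagonist DKK4 and the R-spondin RSPO4. WNT7A, a ligand of uterine epithelium in mice, and WNT10A were above background on a single array, that of cow 4 at day 50, at -4.09 and -4.97. No probe carried the name of WNT4, WNT6, FZD2, FZD5, FZD6 or LGR6.

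**Figure D1:**
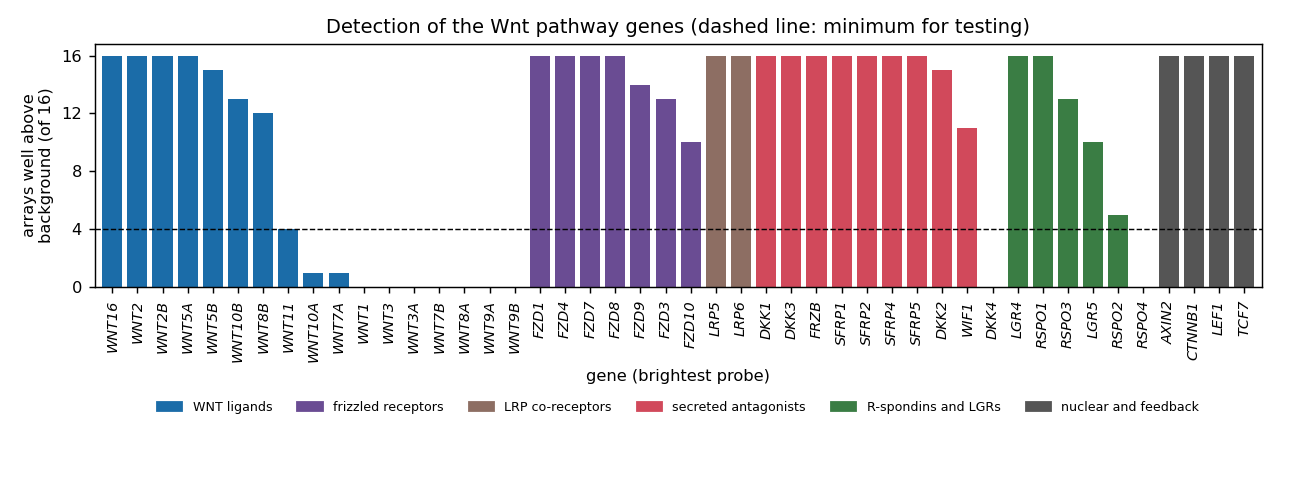
Number of arrays, of 16, on which the brightest probe of each of the 46 Wnt pathway genes was well above background, coloured by role. The dashed line marks the minimum of 4 arrays for testing. All 7 frizzled receptors stand above it, and 9 of the 17 WNT ligands stand below it.

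Some undetected ligands are neighbours of other ligands on the deposited probe map. WNT1 lies at chr5:33871763-33871822 and WNT10B at chr5:33885631-33885690, and these probes were well above background on 0 and 13 of 16 arrays. A second WNT10B probe, at chr5:33879971-33880030, was well above background on 0 of 16 arrays. WNT3A at chr7:2955005-2955064 and WNT9A at chr7:3082158-3082217 were both above background on 0 arrays. The same held for WNT9B at chr19:46804349-46804408 and WNT3 at chr19:46901735-46902368, where the span of the WNT3 probe covers more than its 60 bases.

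The comparisons ask how the endometrium differed between the early postpartum period and later times. At day 30 against day 10, 0 of 35 member genes were called and 4 had an unadjusted p under 0.05, where 0.491% of all 13031 tested gene symbols were called and 14.5% had such a p. At day 50 against day 10, 1 of 35 was called and 12 had an unadjusted p under 0.05, against 2.00% and 19.7% of all symbols. At day 100 against day 10, 2 of 35 were called and 12 had an unadjusted p under 0.05, against 4.88% and 25.7%. In the F test over all times 0 of 35 were called and 11 had an unadjusted p under 0.05, against 1.07% and 19.1% of all symbols.

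Between the later times nothing was called by limma in these genes or over all probes, so the background was 0.00%. An unadjusted p under 0.05 was found for 6 of 35 genes between day 30 and day 50, for 6 between day 30 and day 100, and for 4 between day 50 and day 100. Over all gene symbols the shares were 9.48%, 12.6% and 2.44%. The median difference of the members from day 10 was -0.09 at day 30, -0.16 at day 50 and -0.19 at day 100. Over all tested symbols the medians were 0.02, -0.03 and 0.01.

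Counts of calls moved with single animals, in these genes and over all probes. Leaving out any 1 cow gave 0 called members at day 50, and at day 100 it gave 0 without cow 1, 3 or 4 and 1 without cow 2, which was LGR4. Over all probes the calls at day 50 went from 548 to 23, 132, 21 and 149 without cows 1, 2, 3 and 4. At day 100 they went from 1527 to 73, 1574, 83 and 193. Leaving out the array of cow 2 at day 100, or that of cow 4 at day 30, raised the count at day 100 to 5. Over all probes it was then 3102 and 2372. Over all single arrays left out the counts ran from 0 to 3 at day 50 and from 0 to 5 at day 100. Over all probes they ran from 48 to 970 and from 258 to 3102. At day 30 the count was 1, WNT2B, without cow 4 at day 30 and 0 without any other array.

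**Figure D2:**
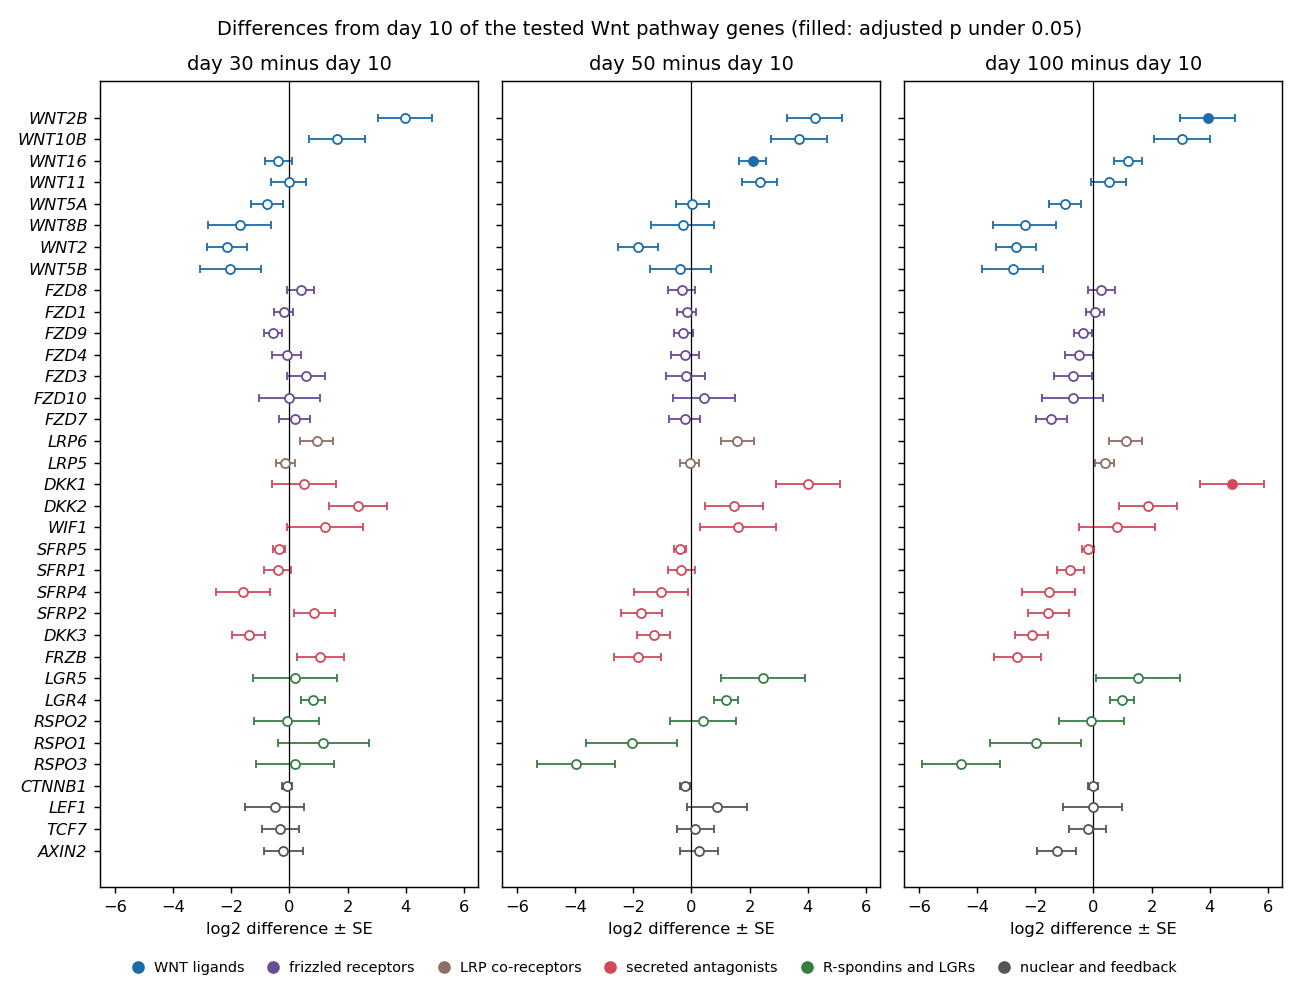
Log2 differences from day 10 at day 30, day 50 and day 100 for the 35 tested genes, ordered by role and by the difference at day 100, with 1 SE from the limma fit over 4 cows. Filled points passed an adjusted p of 0.05: WNT16 at day 50, and WNT2B and DKK1 at day 100.

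Among the ligands WNT2B had the largest difference. WNT2B is a secreted ligand related to WNT2, and its brightest probe lies at chr3:33314345-33314404. Its level in cows 1 to 4 was -3.83, -4.70, -1.86 and -3.81 at day 10 and 1.51, 0.67, 2.03 and -2.53 at day 30. It was 1.80, 0.69, 0.05 and 0.19 at day 50 and -1.41, -0.01, 1.20 and 1.72 at day 100. Every value at day 50 and day 100 lay above every value at day 10, and at day 30 only cow 4 remained in the range of day 10. WNT2B rose by 3.92 ± 0.94 at day 100 (SE, 15.2-fold, higher in 4 of 4 cows, limma adjusted p = 0.0412). The differences of 3.97 ± 0.94 at day 30 and 4.23 ± 0.94 at day 50 were as large and were not called, with adjusted p of 0.0966 and 0.0505. At day 50 WNT2B was called in 11 of the alternatives, among them no cow block (adjusted p = 0.0429), cow as a random block (0.0307), quantile normalization (0.0412) and normexp (0.0382), and without cow 4 at day 30 or cow 1, 2 or 4 at day 100. The second WNT2B probe, well above background on 11 arrays, differed by 2.44 ± 1.07 at day 100 and was not called (adjusted p = 0.180).

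The WNT2B call at day 100 was lost without any 1 cow, with adjusted p from 0.0868 to 0.158 and differences from 3.39 without cow 4 to 4.42 without cow 1. Without single arrays the difference ran from 3.06 without cow 4 at day 100 (adjusted p = 0.107) to 4.73 without cow 1 at day 100 (adjusted p = 0.0279). The single arrays whose removal ended the call were the 4 of day 10, those of cows 2 and 3 at day 30, of cows 1, 2 and 4 at day 50 and of cows 3 and 4 at day 100. It was also lost when only the arrays of these times were fitted (0.109) and with the mean over both probes, 3.18 (0.0822).

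WNT16, a ligand known from bone and skin, was the call at day 50. Its probe has no position in the deposited files. Its level was -3.36, -4.24, -2.80 and -3.09 at day 10 and -2.69, -6.17, -3.49 and -2.69 at day 30. It was -0.87, -2.97, -0.30 and -0.89 at day 50 and -2.98, -3.96, -0.60 and -1.18 at day 100. Cow 2 was lowest at all 4 times, and its value at day 50 lay within the range of day 10, so the groups overlapped although each cow was higher at day 50 than at day 10. WNT16 rose by 2.11 ± 0.47 at day 50 (SE, 4.33-fold, higher in 4 of 4 cows, limma adjusted p = 0.0498). At day 100 the difference was 1.19 ± 0.47 and was not called (adjusted p = 0.143).

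This call lay just inside the threshold. It was lost without any 1 cow (adjusted p from 0.0932 to 0.217), without the cow block (0.237), with cow as a random block (0.156), with quantile normalization (0.0540) and with no filter on dim probes (0.0591). Of 16 arrays left out singly, it held only without cow 1 at day 30, cow 1 or 2 at day 100, or cow 2 at day 10.

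WNT2, WNT10B and WNT11 were not called, and like the other genes outside the naming rule they are described because their values stood out once seen. WNT2, a stromal ligand in several organs, had a level of 3.36, 1.75, 2.77 and 3.03 at day 10 and -1.12, -1.40, 1.90 and 0.88 at day 100. It was lower in 4 of 4 cows and the groups overlapped through cow 3 (-2.66 ± 0.70 at day 100, SE, adjusted p = 0.0534). It was called at day 100 without cow 4 at day 30 and with normexp, array weights, the covariate of muscle and epithelium, or the percentile or filter taken over probes bright on all arrays. WNT10B, known for its part in fat and bone cell choice, stood at -6.76, -7.68, -3.88 and -4.82 at day 10, not above background in cows 1 and 2. At day 50 it stood at -2.21, -3.43, -1.78 and -0.97, above every value of day 10, with a difference of 3.69 ± 0.96 (SE, adjusted p = 0.0784). This rests on 1 of 2 WNT10B probes, since the second was dim on every array, and the difference was called without cow 4 at day 30, with array weights, and with only the arrays of these times.

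WNT11, a ligand of the branch that does not need beta-catenin, was well above background on 4 arrays. They were cows 1, 3 and 4 at day 50, at -3.65, -5.32 and -4.47, and cow 1 at day 100, at -6.21. The probe met the minimum of 4 arrays for testing only through day 50 and day 100. Its higher level at day 50 is therefore not independent of the filter. Since no array of day 10 or day 30 was above background, the fold is a bound set by the dimmest probes well above background there. WNT11 at day 50 was at least 3.44-fold higher than at day 10 and at least 2.31-fold higher than at day 30, and neither passed the test (adjusted p = 0.0752 and 0.435). The difference from day 10 was called without cow 2 at day 10, with array weights and with the muscle and epithelium covariate. The measured means were -7.58 ± 0.64 at day 10, -7.60 ± 1.55 at day 30 and -5.23 ± 1.65 at day 50 (SD, n = 4).

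WNT5A, the ligand of uterine stroma best known for signalling without beta-catenin, was measured on all arrays. Its level was -2.24, -4.22, -3.78 and -2.79 at day 10 and -4.25, -4.24, -2.71 and -4.91 at day 30. It was -3.22, -4.19, -3.14 and -2.34 at day 50 and -3.10, -4.93, -5.17 and -3.69 at day 100. The groups overlapped at every time, and the difference from day 10 was -0.97 ± 0.55 at day 100 (SE, 95% interval -2.18 to 0.25, adjusted p = 0.294).

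WNT5B and WNT8B differed most between cows at day 10. WNT5B, a near relative of WNT5A, stood at 0.91 and -0.36 in cows 1 and 4 and at -4.29 and -4.07 in cows 2 and 3. WNT8B stood at -0.15 and -1.87 in cows 1 and 4 and at -5.83 and -5.34 in cows 2 and 3. Each gene rests on 1 tested probe, since the second WNT8B probe was well above background on 0 arrays and the second WNT5B probe on 2. Cows 1 and 4 were also those with neutrophil marker levels of 4.44 and 3.72 at day 10, against 0.48 and -0.02 in cows 2 and 3. Other marker levels, though not that of ciliated epithelium, split these cows at day 10 too. The epithelial level was 0.56 and 0.66 in cows 1 and 4, against -2.69 and -0.86 in cows 2 and 3. The smooth muscle level was -1.61 and -1.70, against 1.68 and 1.37. These cell types cannot be told apart here, and their part in the values was not tested. Cow 4 at day 50 had WNT5B at -0.58 and WNT8B at -1.45, near its own day 10 values, with a neutrophil level of -0.63. Neither gene was called (adjusted p = 0.131 and 0.198 at day 100 against day 10).

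**Figure D3:**
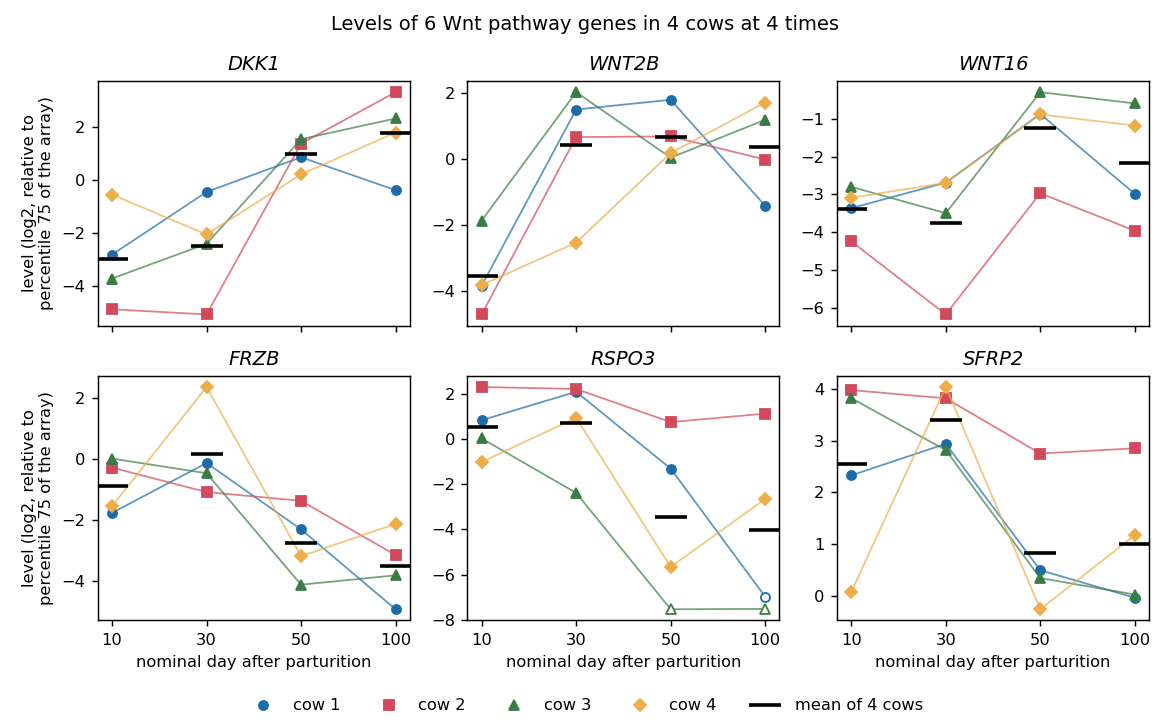
Levels of 6 genes in each cow at nominal day 10, 30, 50 and 100 after parturition, on the log2 scale relative to percentile 75 of the array, with the mean of 4 cows as a black bar. Open symbols mark arrays where the probe was not well above background. DKK1 at day 50 and day 100 lies above all its values at day 10, and RSPO3 at day 100 spans from -7.52 to 1.13.

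The frizzled receptors gave no call by limma in any comparison, and 1 of 7 had an unadjusted p under 0.05 at day 100 against day 10. Over all symbols 4.88% were called in that comparison and 25.7% had such a p, so few calls were to be had among 7 genes. FZD7, a receptor of epithelial and stem cells, was the lowest of them in p. Its level was -2.26, -1.93, -1.81 and -2.36 at day 10 and -1.55, -1.005, -1.21 and -3.86 at day 30. It was -2.24, -1.95, -2.65 and -2.43 at day 50 and -2.95, -2.99, -4.96 and -3.27 at day 100. By this brightest probe all values of day 100 lay below all values of day 10 and day 50, with a difference of -1.45 ± 0.54 from day 10 (SE, lower in 4 of 4 cows, adjusted p = 0.123). It was called without cow 4 at day 30. The further FZD7 probes had r of only 0.28 to 0.42 with the brightest, and their values of day 100 overlapped those of day 10. The differences at day 100 went from -1.45 to -0.33 over the 3 probes.

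FZD3, a receptor known from axon guidance, was dim. Its level was -6.96, -4.06, -4.23 and -5.84 at day 10 and -4.79, -3.64, -4.63 and -5.80 at day 30. It was -5.27, -5.22, -5.52 and -5.87 at day 50 and -4.75, -7.00, -6.39 and -5.76 at day 100, with cow 1 at day 10 and cows 2 and 3 at day 100 not above background. The groups overlapped and no difference was called (-0.70 ± 0.66 at day 100 against day 10, SE, adjusted p = 0.527).

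FZD1, FZD4, FZD8, FZD9 and FZD10 had differences from day 10 between -0.71 and 0.43 at all 3 later times. For FZD1 the difference at day 100 was 0.05 with a 95% interval from -0.66 to 0.76. Its 5 probes did not run together, since their differences at day 100 went from -1.60 to 0.05. FZD4 differed by -0.49 by its brightest probe and by -1.57 by the other, whose groups did not overlap, and neither passed (adjusted p = 0.547 and 0.149).

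The co-receptors LRP5 and LRP6, which WNT ligands engage beside a frizzled receptor, were above background on all arrays. LRP6 had a level of -1.54, -0.51, -0.48 and -1.15 at day 10 and 1.27, -0.68, 0.02 and -0.54 at day 30. It was 0.79, 1.43, 0.40 and -0.01 at day 50 and -0.06, 1.45, -1.28 and 0.64 at day 100. All values of day 50 lay above those of day 10, by 1.57 ± 0.57 (SE, adjusted p = 0.172). LRP5 had a level of -0.89, -1.86, -1.30 and -0.58 at day 10 and -0.94, -1.70, -1.47 and -1.10 at day 30. It was -1.22, -1.02, -1.26 and -1.38 at day 50 and 0.23, -0.76, -1.66 and -0.91 at day 100. The LRP5 groups overlapped throughout, and its 4 probes disagreed in sign at day 100 against day 10, from -0.80 to 0.38.

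Among the antagonists, DKK1 was the only one called by its brightest probe. Of 9 tested, 1 was called higher at day 100 and none lower, while 6 had a negative and 3 a positive difference. Over all symbols 4.88% were called, and 6556 had a positive and 6475 a negative difference. DKK1, which blocks LRP5 and LRP6, had a level of -2.83, -4.89, -3.73 and -0.56 in cows 1 to 4 at day 10 and -0.46, -5.09, -2.42 and -2.07 at day 30. It was 0.85, 1.37, 1.54 and 0.21 at day 50 and -0.39, 3.32, 2.32 and 1.79 at day 100. Every value at day 50 and day 100 lay above every value at day 10 and at day 30, with cow 1 at day 100 just above its own value at day 30 and that of cow 4 at day 10. DKK1 rose by 4.76 ± 1.097 at day 100 (SE, 27.2-fold, higher in 4 of 4 cows, limma adjusted p = 0.0360). At day 50 the difference of 4.00 ± 1.097 was not called (adjusted p = 0.0897). The other DKK1 probe gave 4.68 ± 1.103 at day 100 and was called too (adjusted p = 0.0387).

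At day 100 the lowest DKK1 value was in cow 1, where the epithelial level was 2.76 and the smooth muscle level -3.72, and the highest was in cow 2, where these were -3.60 and 2.28. With the difference of the muscle and epithelial levels as a covariate, the rise of DKK1 was 5.12 (adjusted p = 0.0245), that of WNT2B 4.08 (0.0362) and that of WNT16 at day 50 was 2.39 (0.0201). The DKK1 call was lost without any 1 cow, with adjusted p from 0.0726 to 0.224 and differences from 3.61 without cow 2 to 5.57 without cow 4. The single arrays whose removal ended it were those of cows 1, 2 and 3 at day 10, of cows 1 and 3 at day 50 and of cows 3 and 4 at day 100. The difference went to 3.79 without cow 2 at day 100 and to 5.71 without cow 1 at day 100, both still called. It was also lost when only the arrays of these times were fitted (0.158).

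FRZB, a secreted frizzled-related protein that binds WNT ligands, had a level of -1.76, -0.28, 0.02 and -1.54 at day 10 and -0.13, -1.08, -0.46 and 2.37 at day 30. It was -2.30, -1.37, -4.12 and -3.18 at day 50 and -4.93, -3.15, -3.81 and -2.12 at day 100. The values of day 100 lay below all those of day 10 and day 30. By the brightest probe the difference from day 10 was -2.61 ± 0.80 (SE, adjusted p = 0.0782) and was not called. By the second probe FRZB fell by 2.50 ± 0.56 on the log2 scale and was called (SE, 5.67-fold lower, lower in 4 of 4 cows, adjusted p = 0.0320). That probe was also called in the F test over all times (adjusted p = 0.0416).

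SFRP1 and SFRP4 also bind WNT ligands, and SFRP4 is known from endometrial stroma. The level of SFRP1 was 4.13, 3.42, 3.101 and 3.67 at day 10 and 3.36, 2.23, 3.43 and 3.68 at day 30. It was 3.15, 3.08, 3.23 and 3.47 at day 50 and 1.28, 3.47, 3.37 and 3.04 at day 100. SFRP1 was lowest in cow 1 at day 100, the array with the lowest stromal marker level, -1.47, and the difference from day 10 was not called (-0.79 ± 0.46, SE, adjusted p = 0.304).

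The level of SFRP4 was 3.46, 0.53, 3.16 and 3.27 at day 10 and 0.61, 1.40, 2.04 and -0.01 at day 30. It was 2.77, 0.52, 2.83 and 0.09 at day 50 and -0.83, 2.70, 0.80 and 1.58 at day 100. At day 10 cow 2 stood apart from the other cows, and the groups overlapped at every later time. The difference was -1.59 ± 0.92 at day 30 and -1.54 ± 0.92 at day 100 (SE, adjusted p = 0.457 and 0.311).

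DKK3, a relative of DKK1 that does not share its action on LRP co-receptors, was lower in 4 of 4 cows at every later time. Its level was 5.47, 4.10, 3.87 and 4.86 at day 10 and 0.66, 3.03, 3.22 and 2.87 at day 100, with no overlap. The difference was -2.13 ± 0.57 (SE, adjusted p = 0.0564) and was not called. DKK3 was called without the cow block, with cow as a random block, and with normexp, quantile normalization, array weights, the percentile or the filter taken over probes bright on all arrays, or without cow 2 at day 100. SFRP2 stood between 2.82 and 4.04 at day 30 and between -0.26 and 2.75 at day 50, with no overlap, a difference of -2.57 ± 0.70 (SE, adjusted p = 0.435). At day 50 and day 100 cow 2 was the highest for SFRP2, at 2.75 and 2.85.

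The remaining antagonists were DKK2, WIF1 and SFRP5. DKK2, a modulator of LRP6, differed from day 10 by 2.36 ± 0.99 at day 30 (SE, adjusted p = 0.322) and was called at day 50 and day 100 only under the muscle and epithelium covariate. WIF1, which binds WNT ligands, ran from -8.64 to -1.61 at day 30 alone, and its SE of 1.30 was the largest of the antagonists. SFRP5 lay between -4.94 and -3.79 on all arrays.

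The R-spondins strengthen Wnt signals. At day 50 and day 100 RSPO3 had the largest SD between cows of the tested members, 3.82 and 4.06 (n = 4). RSPO3, an R-spondin of stromal and muscle cells in other organs, had a level of 0.84, 2.31, 0.03 and -1.01 at day 10 and 2.10, 2.22, -2.38 and 0.94 at day 30. It was -1.30, 0.76, -7.53 and -5.66 at day 50 and -6.98, 1.13, -7.52 and -2.65 at day 100, with cow 3 at both times and cow 1 at day 100 not above background. It was lower in 4 of 4 cows at day 50 and day 100, but cow 2 stayed in the range of day 10. The difference at day 100 was -4.55 ± 1.34 (SE, 95% interval -7.49 to -1.60) and was not called (adjusted p = 0.0703). The smooth muscle level at day 100 was also highest in cow 2, 2.28, and low in cows 1 and 3, -3.72 and -1.88. With the muscle and epithelial levels as a covariate RSPO3 was called lower at day 100, as it was with normexp and without cow 2 at day 100.

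RSPO1 showed a like spread. Its level was -1.39, 4.12, 3.71 and -0.27 at day 10, with smooth muscle levels of -1.61, 1.68, 1.37 and -1.70 in the same cows. At day 100 it was -5.03, 2.88, -1.23 and 1.59, with smooth muscle levels of -3.72, 2.28, -1.88 and 0.21. At day 100 the cows had the same order in both, at day 10 cows 1 and 4 changed places, and no RSPO1 difference was called (-1.99 ± 1.56 at day 100, SE, adjusted p = 0.440). RSPO2 was above background on 5 arrays, with its highest level, -3.64, in cow 1 at day 10.

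LGR4, a receptor of R-spondins in many epithelia, had a level of 0.14, 0.53, 0.77 and -0.35 at day 10 and 1.17, 1.40, 1.00 and 0.83 at day 30. It was 1.60, 2.05, 1.51 and 0.69 at day 50 and 1.92, 0.02, 2.37 and 0.66 at day 100. The values of day 30 lay above all those of day 10, and cow 2 alone was lower at day 100 than at day 10. The difference was 1.19 ± 0.41 at day 50 and 0.97 ± 0.41 at day 100 (SE, adjusted p = 0.158 and 0.170). LGR4 was called at day 100 without cow 2, and at day 50 and day 100 without the array of cow 2 at day 100.

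LGR5, the receptor best known as a stem cell marker and found in uterine glands, was above background on 10 arrays. Its level was -3.54, -7.22, -8.64 and -3.33 at day 10 and -5.75, -6.76, -2.93 and -6.57 at day 30. It was -4.52, -3.84, -2.92 and -1.62 at day 50 and 0.03, -7.01, -4.11 and -5.50 at day 100. The highest value was in cow 1 at day 100, the array with the highest epithelial level, and cow 2 at day 100, with the lowest epithelial level, was not above background. The difference of 2.46 ± 1.44 at day 50 had a 95% interval from -0.70 to 5.62 (adjusted p = 0.392).

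**Figure D4:**
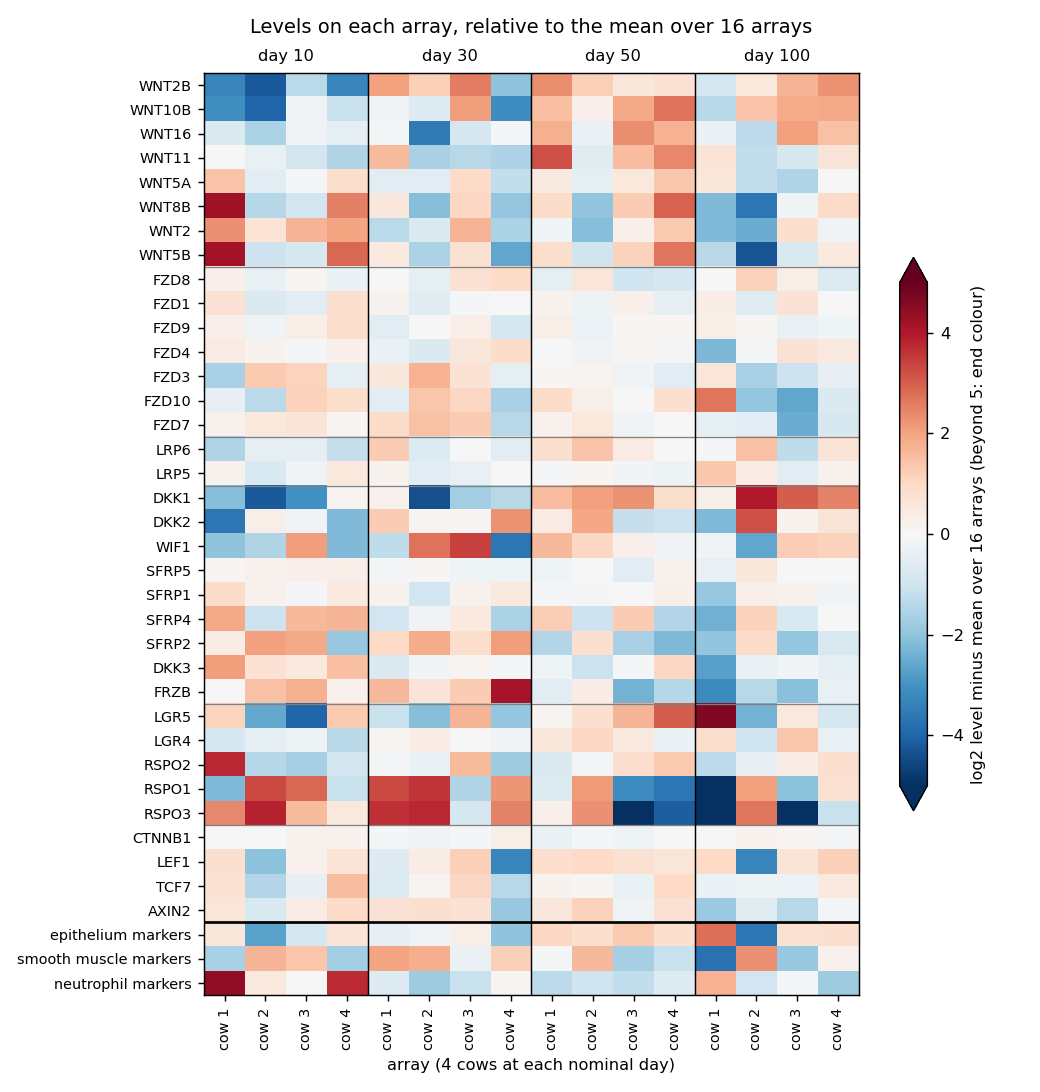
Level of each of the 35 tested genes on each array as log2 minus its mean over 16 arrays, grouped by time and role, with values beyond 5 in the end colours. The lowest 3 lines give the marker levels. WNT2B is low in all 4 cows at day 10, DKK1 is high at day 50 and day 100, and RSPO1 and RSPO3 are high in cow 2 at day 100 together with the smooth muscle level.

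The 4 intracellular members gave 0 calls in all comparisons. Day 100 against day 10 had the most calls over all symbols, 4.88%, so 0 calls among 4 genes is near that share. CTNNB1, which encodes beta-catenin, had a level of 3.35, 3.40, 3.54 and 3.54 at day 10 and 3.32, 3.21, 3.28 and 3.65 at day 30. It was 3.05, 3.31, 3.17 and 3.39 at day 50 and 3.37, 3.59, 3.45 and 3.31 at day 100. The difference between day 100 and day 10 was -0.03 with a 95% interval from -0.39 to 0.34, and the 4 CTNNB1 probes gave -0.33 to -0.03. The brightest probe did not run with the others over the arrays and had r of -0.60 to -0.27 with the other 3, a description over 16 arrays of 4 cows. The other 3 also ranged more widely, one of them from 1.05 to 2.44, so the narrow range is that of the brightest probe. This is RNA only, and the stability of the protein was not measured.

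AXIN2, a direct target and feedback inhibitor of the canonical branch, had a level of -1.87, -3.23, -2.05 and -1.53 at day 10 and -1.76, -1.65, -1.77 and -4.35 at day 30. It was -1.93, -1.32, -2.66 and -1.72 at day 50 and -4.31, -3.06, -3.86 and -2.52 at day 100. Cow 4 at day 30 was far below the others of that time, and its epithelial level, -2.003, was the lowest of day 30. Against day 50, AXIN2 at day 100 was lower in 4 of 4 cows by -1.53 ± 0.66 (SE, log2), with groups that overlapped and no call (adjusted p = 0.912).

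LEF1, a partner of beta-catenin on DNA, had a level of -0.83, -3.66, -1.41 and -0.94 at day 10 and -2.25, -1.26, -0.45 and -4.89 at day 30. It was -0.80, -0.64, -0.87 and -1.04 at day 50 and -0.62, -4.92, -0.98 and -0.44 at day 100. The 3 lowest values were in cow 2 at day 10, cow 4 at day 30 and cow 2 at day 100, the 3 arrays with the lowest epithelial levels, -2.69, -2.003 and -3.60. Whether fewer epithelial cells carry these values was not tested. Its difference from day 10 was 0.87 ± 1.02 at day 50 and -0.03 ± 1.02 at day 100 (SE, adjusted p = 0.692 and 0.989). TCF7, another such partner, differed from day 10 by -0.32 to 0.13 at the 3 later times and was not called.

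Some members differed from day 10 so that no value of one group reached the other. At day 30 this held for 1 higher gene, LGR4, and for 2 lower ones, DKK3 and SFRP5, against 3.76% and 4.96% of all gene symbols. At day 50 it held for 4 higher genes, DKK1, LRP6, WNT10B and WNT2B, and for no lower one, against 9.14% and 8.35%. At day 100 it held for DKK1 and WNT2B among the higher and for DKK3, FRZB and FZD7 among the lower, against 5.64% and 5.85%.

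Of other genes of the pathway 63 were tested, from ligand secretion to nuclear partners and targets. At day 30, 0 were called, with an unadjusted p under 0.05 for 4 higher and 7 lower ones. At day 50, 1 was called lower and 0 higher, where 2.00% of all symbols were called, 95 higher and 166 lower. At day 100, 4 were called lower and 0 higher, where 4.88% were called, 237 higher and 399 lower. CD44, an adhesion receptor that is a known target of the pathway and is abundant on leukocytes, fell by 2.95 ± 0.47 at day 50 and by 2.54 ± 0.47 at day 100 on the log2 scale (SE, adjusted p = 0.0195 and 0.0186). The macrophage marker level, over 11 markers, went with it from 1.67 ± 0.70 at day 10 to -0.25 ± 1.03 and -0.73 ± 0.64 (SD, n = 4), and its part was not tested.

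The other calls were at day 100. TLE4, a nuclear co-repressor, fell by 1.59 ± 0.32, and GPC4, a glypican of the cell surface, fell by 2.65 ± 0.55 (SE, adjusted p = 0.0251 and 0.0260). CSNK1A1, a kinase of the complex that marks beta-catenin for breakdown, fell by 0.67 ± 0.17 (SE, adjusted p = 0.0465). CD44, TLE4, GPC4 and CSNK1A1 were each lower at day 100 in 4 of 4 cows.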

How the data were processed

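Per the labels, total RNA of 16 biopsies was labelled with Cy3 after a spike-in mix was added. The deposited scanner files hold processed intensity per spot, with the background subtracted per array (Agilent Feature Extraction 11.5.1.1, per the file headers), while the submitters' processing notes name version 10.5.1.1. A value table on a log2 scale was deposited too. For comparison, the scanner values were set relative to the percentile 75 and centred per probe. Over 43653 probes each array of the table correlated with them at 0.99985 or more. Such a correlation does not see a constant shift of an array, so it cannot show which percentile was used. The column medians of the table ran from -0.16 to 0.22. The table served as an alternative.

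Spots marked nonuniform, 4 to 125 per array, were left out, log2 intensity was set relative to the percentile 75 of its array, and spots of a probe were averaged. Gene names and positions are those of the array design and build Btau_3.1 per the file headers. Limma 3.58.1 in R 4.3.3 was fitted with time and cow as fixed terms on 33182 probes. It had 9 residual degrees of freedom, two-sided tests and Benjamini-Hochberg adjustment. The code was also run on simulated data, where the noise of a probe was independent and of equal spread on all arrays. That run cannot show how the fit behaves where arrays differ in precision. The number of arrays limits the precision: the median SE of a difference was 0.36.

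The pairing is by animal, per the labels. Across probes, the median correlation of deviations from the mean of each time was 0.12 for 24 pairs of arrays of 1 cow, with a range from -0.13 to 0.51. For 72 pairs of different cows at different times the median was -0.04. Such deviations cancel out over the cows within each time, so the value for different cows largely follows from that for the same cow. The contrast of these medians therefore cannot serve as a check of the pairing.

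Members were matched by gene name and not by measured values, but this choice and the lists were made with earlier results of these data known. Given with all values were called members, the 2 members of each role with the smallest F test p, and members known from uterine biology (WNT4, WNT5A, WNT7A, WNT7B, FZD6, SFRP1, SFRP4, DKK1, RSPO3, LGR5, AXIN2, LEF1 and CTNNB1); of other pathway genes, those called. Other genes were named after their values were seen. Where an array group was not above background, a fold is the bright group's mean against, per array, the higher of the dim probe's signal and the lowest signal among probes well above background. Alternatives were normexp background correction, quantile normalization, another percentile, the value table, other filters, no or a random cow block, array weights, a muscle and epithelium covariate, other probe summaries and leaving out cows or arrays.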

Additional observations from a re-analysis of the deposited data

Results flagged for a closer look

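In 17 named genes, 68 groups of 4 cows were checked for a cow far from the 3 others, and 4 groups had one. Chance flags about 1 in 20 groups. All 4 were low values. FZD7 at day 100 was -4.96 in cow 3, against -3.27 to -2.95 in the other cows. AXIN2 at day 30 was -4.35 in cow 4, against -1.77 to -1.65. SFRP4 at day 10 was 0.53 in cow 2, against 3.16 to 3.46. LEF1 at day 100 was -4.92 in cow 2, against -0.98 to -0.44. The epithelial marker level was the lowest of its time on the arrays of AXIN2, SFRP4 and LEF1, at -2.003, -2.69 and -3.60, and was 0.74 on that of FZD7. On the array of cow 2 at day 100, with the lowest epithelial level of all, SFRP4 was the highest of its time, at 2.70. AXIN2 was -3.06 on that array, within its day 100 range of -4.31 to -2.52. Whether cell make-up sets these values was not tested.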

How the results depend on the processing

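The 3 calls are close to the threshold and rest on 4 cows. Called members over all times (0 in the F test as reported) numbered 2 with normexp background correction, 1 with probes well above background on all arrays, 1 with cow as a random block, 7 with array weights and 1 with the muscle and epithelium covariate. As reported, the F test called 342 of all 33182 probes. Its totals under the alternatives, or with cows or arrays left out, are not given here. These member counts therefore cannot be set against a share of all probes. At day 30 against day 10 (0) array weights gave 1, WNT2B. Over all probes array weights gave 514 calls at day 30, against 139 as reported. At day 50 against day 10 (1) the count was 2 with normexp, 0 with no filter, 2 with probes above background on all arrays, 10 with array weights, 4 with the covariate and 2 with the arrays of these times only. Over all probes the calls at day 50 were 548 as reported, 647 with normexp and 429 with no filter. They were 428 with probes above background on all arrays, 5250 with array weights and 1251 with the covariate. With the arrays of these times only they were 889. At day 100 against day 10 (2) it was 5 with normexp, 4 with the percentile taken over probes above background on all arrays, 4 with probes above background on all arrays, 5 with array weights, 5 with the covariate, 3 with quantile normalization or a random cow block (WNT2B, DKK3 and DKK1), 0 with the arrays of these times only and 1 with the mean over probes. Over all probes the calls at day 100 were 1527 as reported, 2111 with normexp and 1661 with that percentile. They were 1177 with probes above background on all arrays, 2767 with array weights and 2601 with the covariate. With quantile normalization they were 1469, with a random cow block 2094 and with the arrays of these times only 44. The mean over probes called 1002 of 19031 gene names. Between day 30 and day 50 (0) array weights gave 3, WNT16, WNT11 and SFRP2, where 411 of all probes were called, against 0 as reported. The cause of these moves was not tested; array weights ran from 0.219 to 7.90. Without the replicate block by cow the counts were 0, 1 and 3 at days 30, 50 and 100 and 0 in the F test, and the gene called at day 50 was WNT2B in place of WNT16. Over all probes the calls without this block were 57, 436 and 1359 at days 30, 50 and 100. Leaving out a cow or an array gave 0 to 2 calls in the F test, and against day 10 it gave 0 to 1 (day 30), 0 to 3 (day 50) and 0 to 5 (day 100), with 0 between the later times. With the mean over probes, LRP5 turned to -0.0078 between day 30 and day 100 and CTNNB1 to 0.0309 between day 10 and day 50, neither called. The difference followed for each other named gene kept its direction under every alternative run for it.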
